A study of Mus musculus with 18 samples.

Results

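Ribosome footprints of MIN6 cells kept for 18 h in cyclopiazonic acid (CPA) were compared with those of cells kept in the vehicle DMSO. MIN6 is a mouse insulinoma line that makes and secretes insulin, and CPA blocks SERCA, the pump that fills the endoplasmic reticulum (ER) with calcium. The members are 6 of the 18 libraries of the series: 3 Ribo-seq libraries from control cells (DMSO, 18 h) and 3 from cells in 200 µM CPA for 18 h (CPA18), 1 of each from each of 3 experiments. The other libraries are Ribo-seq after 1 h of CPA (CPA1) and mRNA-seq of all these conditions. All come from 1 cell line in culture, and none is labelled with a genetic change made for the study. The data therefore describe a tumour-derived beta-like cell and not an islet.

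When calcium leaves the ER, proteins fail to fold there and the unfolded protein response begins. Its sensor PERK phosphorylates eIF2 and lowers initiation in general, while the mRNAs of Atf4, Ddit3 and Ppp1r15a, which carry upstream open reading frames, are translated. ATF6 and the spliced form of Xbp1 switch on chaperones and degradation factors of the ER. A beta cell meets this response with an ER that is mostly occupied by proinsulin.

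Ribo-seq sequences the stretch of mRNA that a ribosome protects, so the reads of a gene are a relative measure of how many ribosomes sit on its mRNAs. Each value is a share of its library, and the output of the whole cell was not measured here. In a bulk sample, fewer cells of a kind and less RNA per cell cannot be told apart. Totals ran from 821147 to 1083297 reads in the control libraries and from 168129 to 553842 in the CPA18 libraries, and the 8033 genes with a read in all 9 Ribo-seq libraries were tested. Levels below are TMM CPM, the library-normalised read count in which the bulk of genes, by the TMM method, sets the scale. Fold changes are on the log2 scale with their standard error (SE), and a gene counts as called at an adjusted p under 0.05 in edgeR's quasi-likelihood test with experiment as a block (Benjamini-Hochberg over all tested genes). List members named beyond the fixed rule for named genes were chosen after their values were seen.

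Defining beta cell genes (Ins1, Ins2, Iapp, Slc30a8, Pdx1, Nkx6-1, Mafa and Slc2a2) all had reads in each library. Of 20 markers of other pancreatic cell types with counts, 2 passed the filter, Gcg and Ttr, and the 18 others had from 0 to 6 reads in any Ribo-seq library, with Sst at 5 or fewer and the acinar genes Cpa1, Cel and Ctrb1 at 0. The titles of the control libraries of experiment 2 and the short descriptions beside them name opposite assays, and titles and column headings were followed. Lars2 took 0.0830% of reads in the column used as footprints and 7.19% in the one used as mRNA. The main counts of called genes are also given without experiment 2, and so are list counts above 2 that this moves by over 1.5 times.

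After 18 h of CPA, 876 genes were higher in footprints (10.9% of the 8033 tested) and 969 were lower (12.1%), 1845 in all (23%). Of these, 565 of the higher and 618 of the lower genes passed a 2-fold difference. Small changes are called less often than large ones, so these counts do not describe the size of change in general. Of all 876 higher genes 826 moved the same way in each of the 3 experiments, as did 942 of all 969 lower genes. Control and CPA18 values did not overlap in 2680 of the 8033 tested genes, among them 721 of the higher and 876 of the lower. Groups that lie apart are therefore common here and not particular to the genes named below. Among genes at 20 TMM CPM or more on average and of 1 sign in all experiments, Ddit3, Cdsn and Trib3 had the highest fitted changes and Ptprf, Slc2a2 and Slitrk6 the lowest, that of Ptprf on 1, 1 and 2 CPA18 reads. Without experiment 2, 541 genes were higher and 567 lower. With libraries scaled by their total count, the median gene moved from 0.03 to 0.40 and the split became 1948 higher and 495 lower. It was 1338 and 688 when the total excluded both insulin genes and Lars2. Directions below are therefore relative to the median gene, and printed calls of list members that total scaling ends are named beside them.

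**Figure D1:**
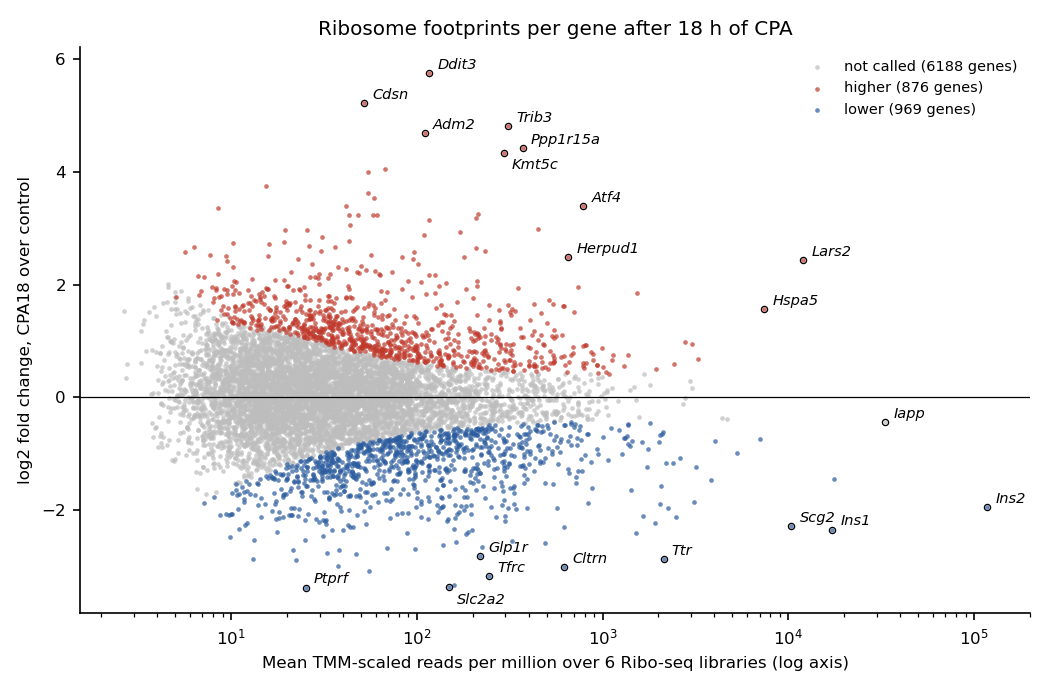
Mean TMM CPM over the 6 libraries (x, log axis) against the log2 fold change of CPA18 over control (y) for the 8033 tested genes; red points are the 876 called higher, blue points the 969 called lower, and named genes are circled. Ddit3, Cdsn and Trib3 lie highest, Ins2 lies far to the right below 0, and Iapp lies just below 0 and is grey.

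Nearly all tested genes of the integrated stress response list rose. Of its 34 genes 31 were tested, and 29 were higher and 0 lower, with a median log2 change of 2.04 against 0.03 over all tested genes. The summed reads of the list went from 0.240% ± 0.0402 of the library in control to 1.27% ± 0.0666 in CPA18 (SD, n = 3). The list was drawn up with earlier results of these data known, so its direction is a description.

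Ddit3 encodes CHOP, a transcription factor tied to prolonged ER stress (chr10:127290793-127296291, GRCm38). Its level was 1.33, 2.47 and 7.94 TMM CPM in the control libraries of experiments 1 to 3, on 1, 2 and 8 reads, and 162, 205 and 323 in CPA18, on 34, 47 and 206 reads. The groups lay far apart and Ddit3 had the largest increase of the named genes, 5.76 ± 0.34 (SE, adjusted p = 1.03e-51), with a denominator of few reads.

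Atf4, the central transcription factor of the response, stood at 114, 136 and 161 TMM CPM in control and at 1238, 1341 and 1723 in CPA18. It rose by 3.39 ± 0.19 (adjusted p = 2.47e-60), and no library of one group reached the other. Ppp1r15a encodes GADD34, which brings a phosphatase to eIF2 and so opposes PERK. It went from 25.2, 29.7 and 44.7 TMM CPM to 535, 762 and 830, a rise of 4.42 ± 0.22 (adjusted p = 1.55e-72). Trib3, a pseudokinase induced by CHOP and ATF4, went from 30.5, 12.4 and 21.8 to 492, 653 and 656 and rose by 4.81 ± 0.23 (adjusted p = 7.39e-74). All 3 of these genes were raised more than 10-fold with no overlap between groups.

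Other members spanned sensors, amino acid supply and redox. Chac1, which breaks down glutathione, rose by 3.26 ± 0.22. Cth, an enzyme of cysteine synthesis, rose by 3.99 ± 0.41, and Nupr1, a small stress-induced nuclear protein, by 4.05 ± 0.37, both from fewer than 10 reads in each control library. The serine synthesis enzymes Phgdh (2.04) and Psph (2.15) and the amino acid transporters Slc7a3 (2.76) and Slc6a9 (3.24) were called higher. The 2 tested members that were not called were Asns, which makes asparagine, at 292, 281 and 378 TMM CPM in control and 330, 505 and 417 in CPA18 (0.39 ± 0.18, adjusted p = 0.102), and Slc7a11, the cystine importer (0.01 ± 0.28, adjusted p = 0.983). In both the groups overlapped.

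Of the untested members, Atf3 had 3, 0 and 11 reads in control and 15, 12 and 65 in CPA18. Gdf15 and Fgf21 had at most 2 reads in any of these libraries, too few to compare.

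Of 32 tested chaperones and folding enzymes of the ER, 17 were higher and 4 lower, with a median of 0.56, and 14 and 13 were higher without experiment 1 and 2. Hspa5 (chr2:34772090-34776529, GRCm38) encodes BiP, the main luminal chaperone and the protein whose release starts the response. It was at 3478, 3580 and 4144 TMM CPM in control and at 10394, 12305 and 10473 in CPA18, a rise of 1.57 ± 0.17 (adjusted p = 7.05e-17). All CPA18 libraries lay above all controls, and by length-normalised level (RPKM) Hspa5 went from rank 39 among all genes in control to rank 9 in CPA18.

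Fkbp11, a prolyl isomerase of secretory cells, went from 62.4, 110 and 131 TMM CPM to 583, 1062 and 761 (2.99 ± 0.19). Manf, a secreted partner of BiP, went from 222, 319 and 376 to 717, 1119 and 967 (1.61 ± 0.17). Neither gene had overlapping groups. The list was not uniform. Ero1b, the disulfide oxidase that favours proinsulin, was at 573, 456 and 634 in control and 234, 187 and 174 in CPA18, a change of -1.51 ± 0.19 (adjusted p = 2.49e-13), and Canx, the membrane lectin chaperone, changed by -0.54 ± 0.17 (adjusted p = 0.00784), a call that was lost with either scaling by totals, after thinning and without any 1 of the experiments. Its luminal counterpart Calr rose by 0.99 ± 0.17 (adjusted p = 9.62e-08). Hsp90b1, the ER form of HSP90, was not called (0.29 ± 0.17, adjusted p = 0.199), with values in overlapping ranges. The number of lower members was 1 in place of 4 without experiment 3, after thinning to the lowest library total and with total scaling, and 2 without experiment 2.

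ER-associated degradation, which draws misfolded proteins back into the cytosol for the proteasome, had 11 of 29 tested members higher and 0 lower, with a median of 0.67. Herpud1, a scaffold of the Hrd1 ligase complex, went from 227, 210 and 157 TMM CPM to 980, 1224 and 1126 (2.49 ± 0.18, adjusted p = 1.58e-37). Ube2g2, a ubiquitin-conjugating enzyme used there, rose by 2.57 ± 0.27, Derl3 by 2.66 ± 0.41 and Sel1l, the partner of Hrd1, by 1.02 ± 0.17. Derl2 was called at 0.78 ± 0.26 (adjusted p = 0.0153), but not under DESeq2, after thinning, or without experiment 1 or 2. Vcp, the ATPase that extracts the substrates, was not called (-0.24).

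Among the sensors and regulators of the response 7 of 19 tested were higher and 0 lower (median 0.40). Xbp1 went from 131, 122 and 156 TMM CPM to 301, 353 and 410 (1.38 ± 0.19, adjusted p = 4.30e-11); reads were counted per transcript and the spliced form was not separated here. Wfs1, an ER membrane protein mutated in Wolfram syndrome, went from 154, 157 and 199 to 330, 540 and 547 (1.46 ± 0.18). Serp1, which stabilises membrane proteins at the translocon, rose by 1.66 ± 0.18, and the sensors Atf6 (1.73), Eif2ak3 (1.08), which is PERK, and Ern1 (0.67), which is IRE1, were all called higher. The calls of Eif2ak3 and Ern1 were lost without experiment 1, that of Ern1 also without experiment 2, and that of Eif2ak3 also without experiment 3, without the block, without the filter and with DESeq2. The groups of Xbp1, Wfs1, Serp1 and Atf6 were apart.

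Carriers between ER and Golgi had 14 of 45 members higher and 2 lower (median 0.34). Tmed9, a cargo receptor, went from 288, 292 and 278 TMM CPM to 593, 827 and 739 (1.32 ± 0.17), and Lman2, a lectin of the early secretory path, rose by 0.99 ± 0.19. Sec24b, a cargo adaptor of the COPII coat, was lower (-1.28 ± 0.36), a call that total scaling, thinning and the absence of experiment 3 ended. The number of higher members ran from 8 (without experiment 2, and with DESeq2) to 26 (total scaling).

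**Figure D2:**
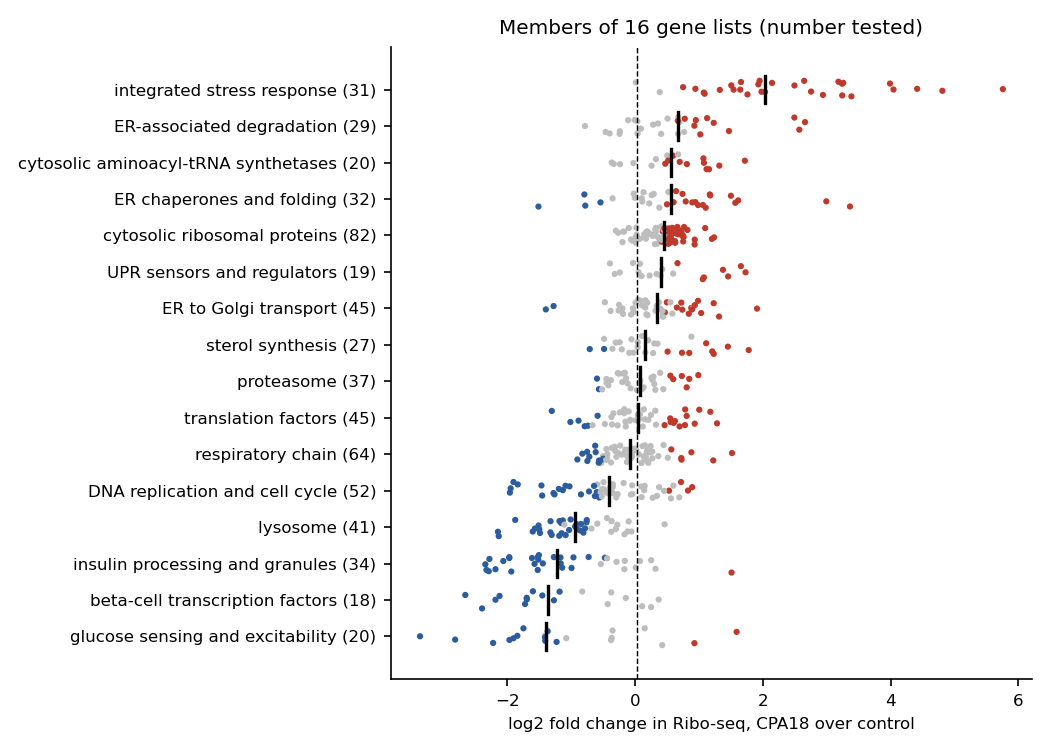
Log2 fold change in Ribo-seq, CPA18 over control (x), of every tested member of 16 gene lists (rows, number tested in brackets); red and blue points were called higher and lower, grey points were not, black bars are list medians and the dashed line is the median of all tested genes. Integrated stress response genes lie almost all to the right with a median of 2.04, while glucose sensing, beta-cell factor, granule and lysosome lists lie to the left.

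Promoters are shown for ER chaperones and stress genes because members with the same letters before their start moved differently. The ER stress response element, searched on both strands as CCAAT and CCACG with 9 bases of any kind between them, is bound by ATF6 and XBP1 with NF-Y, and the C/EBP-ATF response element, searched as TGATGNAA on both strands, is bound by ATF4 with C/EBP partners. RefSeq promoter windows (GRCm38.p6, 250 bases before to 50 after each annotated start) were found for 6492 of the 8033 tested genes. The first motif stood in a window of 7 of 721 higher genes (0.971%), 2 of 732 lower genes (0.273%) and 5 of 5039 genes not called (0.0992%). The share was 0.216% over all tested genes with a window and 0.137% over all 27025 genes with a window. Among tested ER chaperones and folding enzymes 8 of 28 held it. The second motif stood in 34 of the higher genes (4.72%), 15 of the lower (2.05%) and 116 not called (2.30%). Its share was 2.54% over the tested genes and 4.51% over all genes. It stood in 6 of 25 tested stress response members and 5 of 13 tRNA synthetases. A match is only a run of letters, and no binding was measured.

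The 250 bases before the start are printed 5′ to 3′ on the strand of the gene, with motif matches in capitals. Hspa5 and Calr, which rose, Hsp90b1, which was not called, and Ero1b, which fell, all held the first motif, and Hsp90b1 held 2 copies.
Hspa5 (chr2:34771840-34772089, plus strand): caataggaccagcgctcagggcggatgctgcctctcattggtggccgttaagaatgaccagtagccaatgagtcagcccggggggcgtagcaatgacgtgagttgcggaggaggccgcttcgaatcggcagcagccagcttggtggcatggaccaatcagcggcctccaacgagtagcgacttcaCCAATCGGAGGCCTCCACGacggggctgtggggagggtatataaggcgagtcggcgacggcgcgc
Calr (chr8:84846932-84847181, minus strand): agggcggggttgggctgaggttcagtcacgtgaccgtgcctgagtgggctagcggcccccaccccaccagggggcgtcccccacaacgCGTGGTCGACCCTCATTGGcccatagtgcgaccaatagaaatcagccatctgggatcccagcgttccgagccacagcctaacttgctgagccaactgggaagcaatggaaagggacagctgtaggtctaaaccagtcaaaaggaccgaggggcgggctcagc
Hsp90b1 (chr10:86705445-86705694, minus strand): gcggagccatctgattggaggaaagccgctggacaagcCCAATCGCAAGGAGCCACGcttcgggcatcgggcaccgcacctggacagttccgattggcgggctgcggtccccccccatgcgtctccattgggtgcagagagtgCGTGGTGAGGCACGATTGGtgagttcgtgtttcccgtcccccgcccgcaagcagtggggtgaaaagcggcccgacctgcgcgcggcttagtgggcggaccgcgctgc
Ero1b (chr13:12565633-12565882, plus strand): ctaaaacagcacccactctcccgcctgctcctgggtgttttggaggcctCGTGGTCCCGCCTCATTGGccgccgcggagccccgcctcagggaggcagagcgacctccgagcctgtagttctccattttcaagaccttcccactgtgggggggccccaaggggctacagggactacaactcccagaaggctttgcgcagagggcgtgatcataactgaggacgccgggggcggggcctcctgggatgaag

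Chac1 and Nupr1, both raised more than 8-fold, and Asns, which was not called in footprints, each held the second motif once.
Chac1 (chr2:119350992-119351241, plus strand): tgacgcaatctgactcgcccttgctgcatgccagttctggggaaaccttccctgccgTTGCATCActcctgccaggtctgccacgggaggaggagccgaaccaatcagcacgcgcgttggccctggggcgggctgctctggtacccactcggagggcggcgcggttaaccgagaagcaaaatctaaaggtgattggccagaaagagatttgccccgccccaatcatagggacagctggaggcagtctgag
Nupr1 (chr7:126625471-126625720, minus strand): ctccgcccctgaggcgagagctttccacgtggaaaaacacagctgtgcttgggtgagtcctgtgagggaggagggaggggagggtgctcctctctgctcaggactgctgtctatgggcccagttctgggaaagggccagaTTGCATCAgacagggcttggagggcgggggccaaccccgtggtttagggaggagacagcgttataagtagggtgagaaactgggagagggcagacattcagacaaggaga
Asns (chr6:7693210-7693459, minus strand): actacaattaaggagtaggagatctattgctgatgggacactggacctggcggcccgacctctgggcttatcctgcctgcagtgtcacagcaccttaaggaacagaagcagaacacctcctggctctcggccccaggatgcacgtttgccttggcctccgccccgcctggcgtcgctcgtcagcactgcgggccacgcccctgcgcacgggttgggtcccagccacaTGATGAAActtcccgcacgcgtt

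Insulin lost most of its place in the pool of footprints. Ins1 and Ins2 together took 19.1%, 21.1% and 18.0% of reads in the control libraries and 5.39%, 6.81% and 7.03% in CPA18. The means were 19.4% ± 1.59 and 6.41% ± 0.892 (SD, n = 3), a 3.03-fold difference. No CPA18 library came near a control, and the exact two-sided permutation test gave p = 0.1, the smallest that 3 against 3 allows. The 95% Wilson interval of the lowest control share was 17.9% to 18.1% and that of the highest CPA18 share 6.96% to 7.10%; such intervals cover counting error only, and copies made by PCR are not independent molecules. As a share of summed RPKM the fall was from 42.6% to 16.4%.

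Per gene, Ins2 (chr7:142678656-142679726, GRCm38) went from 179213, 209385 and 169622 TMM CPM to 38671, 54009 and 54755, a change of -1.94 ± 0.21 (adjusted p = 6.87e-17). Ins1 (chr19:52264297-52265015), the second mouse insulin gene, went from 28793, 33661 and 23837 to 4602, 6196 and 6240 (-2.34 ± 0.19, adjusted p = 1.28e-29). The coding sequences of this pair are close copies, so the division of short reads between them is uncertain while their sum is not. Ins2 stayed first by RPKM in both conditions. Iapp, the amyloid peptide stored with insulin, was singled out after its values were seen. It was at 43193, 42041 and 29440 TMM CPM in control and 32014, 31520 and 21252 in CPA18, overlapping groups with a change of -0.44 ± 0.19 (adjusted p = 0.0745). Within experiments 1 to 3 it was lower by a similar amount, with log2 differences of -0.43, -0.42 and -0.47.

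Proteins that process and store insulin were mostly lower as well: 24 of 34 list members were lower and 1 higher, with a median of -1.22. Pcsk2, a prohormone convertase, went from 3630, 3996 and 3112 TMM CPM to 731, 949 and 1050 (-1.97 ± 0.17), and Pcsk1, the other convertase, from 275, 330 and 338 to 62.1, 104 and 65.8 (-2.06 ± 0.22). Scg2, a granin of the granule core, went from 15657, 17995 and 17837 to 3426, 3723 and 3459 (-2.28 ± 0.18), and Ptprn2, a granule membrane protein, changed by -2.29 ± 0.19. The groups were apart for each of these 4 genes. Syt4, a synaptotagmin that binds calcium poorly, moved the other way, from 151, 174 and 168 to 382, 509 and 514 (1.51 ± 0.18, adjusted p = 4.40e-14). The whole list went from 29.3% ± 2.16 to 12.9% ± 0.865 of reads.

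**Figure D3:**
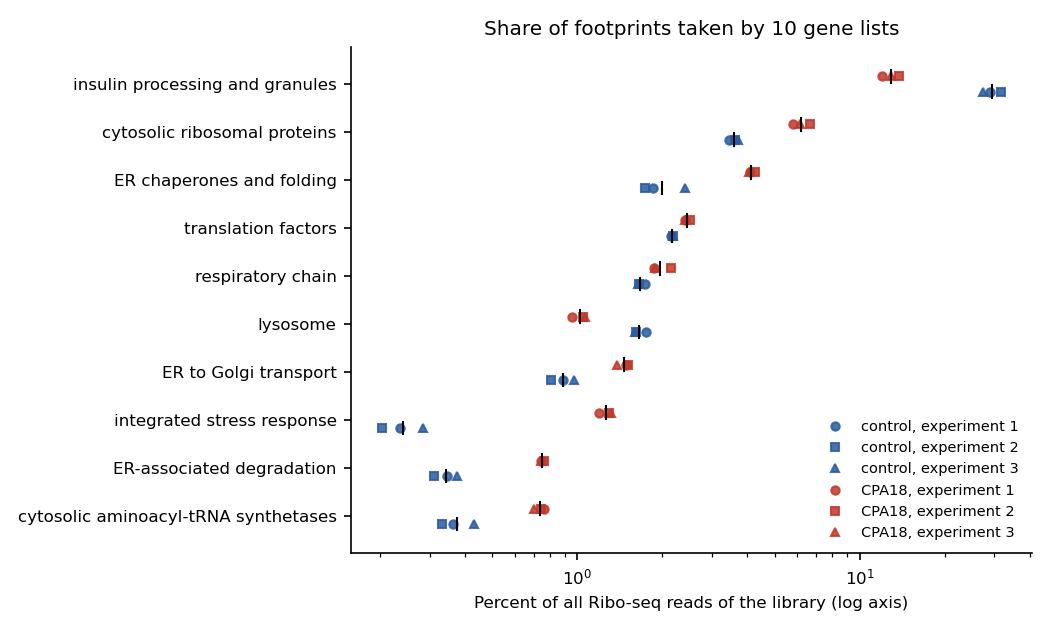
Percent of all Ribo-seq reads of a library (x, log axis) taken by the members of 10 gene lists (rows); blue symbols are control and red CPA18 libraries, the symbol shape gives the experiment and black bars are group means. The insulin and granule list falls from about 29.3% to 12.9%, ribosomal proteins rise from 3.59% to 6.20%, and the stress response list moves furthest in proportion. Shares are of the library total, a scale on which the median gene rose by 0.40 (log2).

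Transcription factors that hold beta cell identity were mostly lower: 11 of 18 tested and 0 higher, with a median of -1.36. The other 6 of the 24 listed lacked a read in at least 1 Ribo-seq library and were not tested. Pdx1 was at 488, 579 and 655 TMM CPM in control and 234, 196 and 205 in CPA18 (-1.45 ± 0.19, adjusted p = 1.66e-12). Mafa was at 346, 334 and 755 in control and 110, 122 and 232 in CPA18 (-1.60 ± 0.20), and Nkx6-1 at 273, 406 and 422 and then 139, 131 and 186 (-1.27 ± 0.20). Pdx1 and Mafa activate insulin transcription, and the groups of all 3 genes were apart.

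The largest falls in this list were those of Mnx1 (-2.66 ± 0.23), Rfx6 (-2.18 ± 0.24) and Isl1 (-2.12 ± 0.21). Nkx2-2 changed by -1.72 ± 0.39 on 2, 6 and 11 reads in CPA18, a call that was lost without experiment 3. Foxa2 (-0.43) and Insm1 (0.25) were not called. With total scaling 11 members were lower and 1 higher.

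Genes of glucose entry, sensing and excitability had 11 of 20 tested members lower and 2 higher (median -1.39). The other 12 of the 32 listed lacked a read in at least 1 Ribo-seq library and were not tested. Slc2a2 (chr3:28697903-28728361) encodes GLUT2, the glucose transporter of mouse beta cells. It went from 249, 366 and 199 TMM CPM to 33.5, 17.4 and 23.5, a change of -3.37 ± 0.28 (adjusted p = 2.54e-29). Glp1r, the receptor for the incretin GLP-1, went from 413, 369 and 380 to 43.0, 52.2 and 59.5 (-2.82 ± 0.23), and G6pc2, the islet glucose-6-phosphatase, from 3234, 3435 and 2756 to 726, 684 and 606 (-2.22 ± 0.18). None of these groups overlapped.

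Of the KATP channel, the regulatory subunit gene Abcc8 was lower (-1.97) while the pore gene Kcnj11 was not called (-0.36 ± 0.23, adjusted p = 0.253). Kcnh2, a voltage-gated potassium channel, was higher (1.59 ± 0.39, adjusted p = 0.000463). Atp2a2 (chr5:122453513-122502225) encodes SERCA2, the target of CPA itself, and went from 5058, 4037 and 4355 to 1945, 1968 and 1809 (-1.23 ± 0.17, adjusted p = 3.71e-11) with no overlap. The islet paralogue Atp2a3 was lower too (-1.41).

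**Figure D4:**
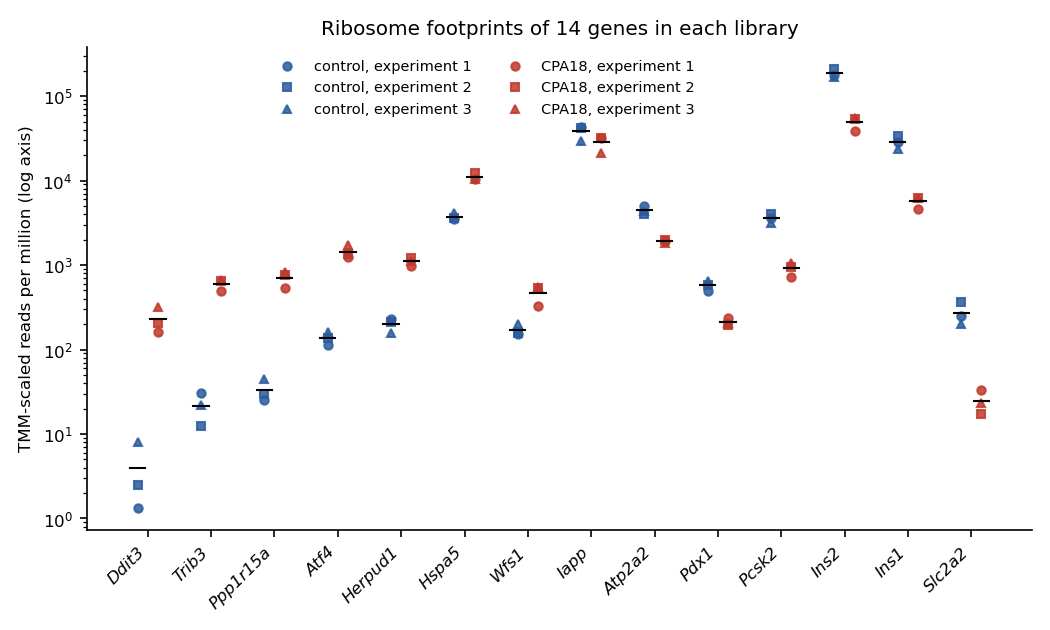
TMM CPM (y, log axis) of 14 genes in each of the 3 control (blue) and 3 CPA18 (red) libraries; shapes give the experiment and black bars the group means. The groups of 13 genes do not meet, with stress genes higher and beta cell genes lower in CPA18, and those of Iapp overlap. Over all 8033 tested genes the groups were apart in 2680.

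Ribosomal protein genes took a larger share of footprints. Of 82 cytosolic ribosomal protein genes 41 were higher and 0 lower, with a median of 0.45, and their summed share went from 3.59% ± 0.134 to 6.20% ± 0.428. The share is of the library total, a scale on which the median gene also rose, by 0.40, so it overstates the change relative to that gene. Rpl36 went from 162, 173 and 166 TMM CPM to 301, 531 and 371 (1.24 ± 0.19), and Rps26 from 336, 362 and 361 to 569, 1045 and 696 (1.10 ± 0.17); both sets were apart. The sizes are small and the count moves easily: 15 were higher without experiment 2, 27 without the experiment block, 29 without experiment 1 and 70 with total scaling. Short mRNAs of this family have many processed copies in the genome, and reads shared with them would be uncertain.

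Cytosolic aminoacyl-tRNA synthetases, which charge tRNAs and include several ATF4 targets, had 11 of 20 higher and 0 lower (median 0.56). Nars went from 242, 199 and 276 TMM CPM to 865, 845 and 680 (1.72 ± 0.18), and Tars (1.32 ± 0.19) and Eprs (1.08 ± 0.18) followed; without experiment 2 the count was 7. Translation factors were mixed, with 13 of 45 higher, 6 lower and a median of 0.05. Pabpc1, the poly(A)-binding protein, went from 272, 205 and 280 to 177, 82.7 and 76.8 (-1.30 ± 0.22), while Eif6 (1.18 ± 0.20) and Eif1 (0.93 ± 0.17) rose. Without the block, with DESeq2 or after thinning 8 of these factors were higher, and 6 without experiment 1 or 2.

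Lysosomal genes had 28 of 41 tested members lower and 0 higher, with a median of -0.94. Lamp1, a main membrane protein of the organelle, went from 1212, 1159 and 1549 TMM CPM to 268, 305 and 486 (-1.88 ± 0.18, adjusted p = 2.46e-22), and the protective carboxypeptidase Ctsa (-1.51 ± 0.18) and the proton pump accessory gene Atp6ap2 (-1.60 ± 0.17) fell too. Proteasome genes had 6 of 37 higher and 2 lower with a median of 0.08, close to the 0.03 of all genes. Without experiment 1 or 2 the number higher was 3, and with total scaling it was 14. Psmb2, a core subunit, rose by 0.85 ± 0.21, a call lost without experiment 2, and Psmd1, a base subunit, changed by -0.60 ± 0.19, a call lost with either scaling by totals, after thinning and without experiment 1.

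Sterol synthesis had 8 of 27 tested members higher and 2 lower (median 0.16). Lss, lanosterol synthase, went from 39.8, 39.6 and 48.6 TMM CPM to 143, 122 and 171 (1.78 ± 0.26), Cyp51 rose by 1.21 ± 0.19 and Fdps by 1.11 ± 0.18. Srebf1, a regulator of lipid genes, was lower (-0.71 ± 0.19), though not with total scaling or without experiment 1.

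DNA replication and cell cycle genes had 18 of 52 tested members lower and 4 higher (median -0.41). Mki67, a marker of cycling cells, went from 259, 286 and 105 TMM CPM to 95.6, 47.9 and 26.6 (-1.95 ± 0.25), and Top2a, the mitotic topoisomerase, changed by -1.90 ± 0.24. Cdkn1a, the inhibitor p21, rose by 0.90 ± 0.21. The lower members included the mitotic genes Aurkb (-1.96), Bub1b (-1.84), Cdk1 (-1.26) and Plk1 (-1.03). Of the MCM helicase subunits Mcm2 to Mcm7 only Mcm6 (-0.60) was called. That call was lost with either scaling by totals and without experiment 1 or 2. Other replication genes moved both ways: Pole (-1.28), Pcna (-0.72), Lig1 (-0.64) and Rfc2 (-0.63) were lower, and Rpa2 (0.72) and Dut (0.53) higher. Total scaling ended the calls of Pcna, Lig1 and Rfc2. Pole was not called without experiment 1, and Rpa2 and Dut were not called without the block, without the filter or with DESeq2. Aurkb was not called without experiment 3, nor Plk1 after thinning. After thinning 10 members were lower and with total scaling 12, with a median of -0.04 on that scale.

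Respiratory chain genes had no common direction: 6 of 64 were higher and 11 lower, and their median was -0.08. The median took the other sign with total scaling (0.29, where that of all genes was 0.40), with insulin and Lars2 out of the total (0.10), after thinning (0.03) and without experiment 1 (0.03). Uqcrq, a small subunit of complex III, went from 320, 367 and 396 TMM CPM to 812, 1263 and 1053 (1.52 ± 0.17), and Atp5a1, the alpha subunit of ATP synthase, from 1956, 1642 and 1674 to 903, 954 and 1094 (-0.83 ± 0.17). Both differences exceeded the spread. The number of lower members was 4 without experiment 1, 7 without experiment 2 or 3, 6 without the block, 4 after thinning and 1 with total scaling, where 17 were higher.

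Ranked by RPKM, a level per transcript length and library total, 15 of the 25 highest genes were the same in control and CPA18. Ins2 (329531 ± 24597 in control and 112554 ± 15912 in CPA18, SD, n = 3), Iapp (47625 ± 8794 and 45983 ± 10959) and Ins1 (42482 ± 5845 and 10873 ± 1301) held the first 3 places in both. Those that entered were Hspa5, Sec61b, a subunit of the ER translocon, Rpl10, Rpl38, Rps13, Rps15 and Rps21 of the ribosome, Ubb, H4c3 and Lars2. Of these, Lars2 went from rank 77 to rank 8, on reads that are uncertain. Those that left were Actg1, Cpe, H1f3, H3c3, Hspa8, Npy, Ppia, Resp18, Ttr and Scg2, which went from rank 6 to rank 56.

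Beyond the lists, the rule of largest changes named Cdsn, an adhesion protein of skin (5.22 ± 0.47, from 3, 1 and 2 control reads), Adm2, a secreted peptide of the calcitonin family (4.69 ± 0.33), Unc5b, a netrin receptor (3.62 ± 0.37), and Steap1, a membrane protein of the metalloreductase family (3.54 ± 0.36). The rule itself asks for a higher value in all 3 experiments. Kmt5c is treated with the mRNA comparison. Among the largest falls, Tfrc, the transferrin receptor, went from 568, 495 and 268 TMM CPM to 71.7, 17.4 and 40.7 (-3.17 ± 0.24), and Cltrn, a beta cell membrane protein also called collectrin, from 1018, 1381 and 924 to 134, 113 and 146 (-3.01 ± 0.20). Ttr, a hormone carrier made in islets, went from 3630, 3170 and 4412 to 382, 518 and 661 (-2.86 ± 0.18).

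Ptprf (-3.37 ± 0.57), Slitrk6 (-3.32 ± 0.27), Hepacam2 (-3.07 ± 0.38), Bambi (-2.99 ± 0.44) and Unc5c (-2.88 ± 0.56), all membrane proteins, were the other large decreases. Their CPA18 reads were few, namely 1, 1 and 2 for Ptprf, 1, 2 and 2 for Unc5c, 2, 1 and 6 for Bambi, 2, 4 and 6 for Hepacam2 and 5, 9 and 15 for Slitrk6. Gcg, which encodes glucagon, was at 121, 228 and 281 in control and 115, 87.1 and 141 in CPA18, overlapping groups with a change of -0.89 ± 0.22 that was not called with total scaling or without experiment 2.

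How far footprints followed mRNA was examined in the matched mRNA-seq libraries. There 2797 of 10125 tested genes were called (27.6%), 1177 of them higher and 1620 lower. Without experiment 2, whose control labels conflict, the calls numbered 1827, and without experiment 1 they numbered 1397. Of the 7794 genes with reads in all 18 libraries, 1822 were called in footprints and 2276 in mRNA, and 1144 were called in both with the same direction, which is 62.8% of the footprint calls and 50.3% of the mRNA calls, while 11 were called in opposite directions. With the mRNA-seq of experiment 2 left out 943 were called in both the same way, and with that of experiment 1 left out 783. Across these genes the log2 changes correlated with Pearson's r = 0.67 and Spearman's rho = 0.62, given as a description since genes are not independent and each pair of libraries came from the same experiment. Atf4 changed by 2.82 in mRNA and 3.39 in footprints, Hspa5 by 1.52 and 1.57, Ins2 by -2.30 and -1.94 and Slc2a2 by -3.68 and -3.37. For none of these 4 did the difference between assays pass the test, which does not show the changes to be equal, since small differences can be missed.

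**Figure D5:**
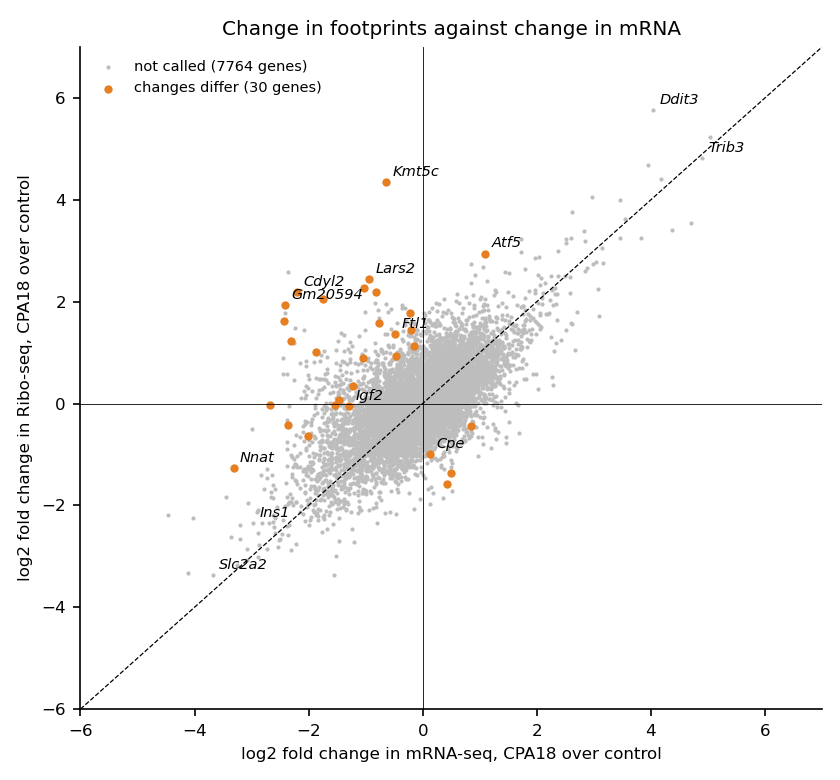
Log2 fold change in mRNA-seq (x) against Ribo-seq (y), CPA18 over control, of 7794 genes; the dashed line marks equal change and orange points are the 30 genes whose changes differed. Most genes lie along the line, and 26 of the 30 orange points lie above it, with Kmt5c furthest up.

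By list, the median mRNA change of the stress response members was 2.23 beside 2.04 in footprints, with 28 called higher in mRNA. The granule list had a median of -1.32 in mRNA beside -1.22, beta-cell factors -1.74 beside -1.36, and lysosomal genes -0.79 beside -0.94. The tRNA synthetases stood at 1.03 in mRNA and 0.56 in footprints, and cell cycle genes at -0.04 and -0.41, with 10 higher and 9 lower in mRNA. These medians were not tested against each other.

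A test of the difference itself, over all 18 libraries, called 26 genes with a higher change in footprints than in mRNA (0.334% of 7794) and 4 with a lower one (0.0513%). The count is small and depends on the block: without it 0 genes passed in edgeR and 328 had an unadjusted p under 0.05, while DESeq2 with the block called 43. It was 9, 21 and 16 without experiment 1, 2 and 3, and 39 without the mRNA-seq control library of experiment 2.

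Kmt5c, a histone H4 lysine methyltransferase, was at 26.5, 18.6 and 37.7 TMM CPM in control footprints and 172, 644 and 859 in CPA18 (4.34 ± 0.24). These levels rest on 20, 15 and 38 control reads and 36, 148 and 548 CPA18 reads. Kmt5c mRNA changed by -0.64 ± 0.31 (adjusted p = 0.140), on 9, 48 and 64 control and 9, 100 and 66 CPA18 reads. The difference was 5.02 ± 0.61 (adjusted p = 5.56e-05). Cdyl2, a chromodomain protein, rose in footprints by 2.18 ± 0.38, on 10, 7 and 16 control and 4, 11 and 63 CPA18 reads. Within experiment 1 its log2 difference in footprints was 0.53. Cdyl2 mRNA changed by -2.21 ± 0.46, on 2, 12 and 13 control and 1, 11 and 3 CPA18 mRNA reads. Ftl1, the ferritin light chain with an iron-responsive element, was at 238, 168 and 284 in control and 588, 583 and 583 in CPA18 (1.37 ± 0.18) against -0.49 ± 0.13 in mRNA. For Cdyl2 and Ftl1 the called changes of footprints and mRNA had opposite directions, and for Kmt5c only the footprint change was called.

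Nnat, an ER proteolipid of beta cells, fell less in footprints (-1.27 ± 0.18) than in mRNA (-3.32 ± 0.25). Atf5, whose mRNA has upstream reading frames like that of Atf4, rose by 2.94 ± 0.23 in footprints and 1.10 ± 0.16 in mRNA (difference 1.92 ± 0.30, adjusted p = 0.00135). Of Cpe, the carboxypeptidase that trims insulin, footprints changed by -0.99 ± 0.17 and mRNA by 0.13 ± 0.14 (difference -1.07 ± 0.21, adjusted p = 0.0199), and Igf2 was level in footprints (-0.05 ± 0.16) and lower in mRNA (-1.29 ± 0.15). Atf5, Cpe and Igf2 were picked from the 30 after their values were seen.

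Gm20594 and Lars2 were called as well, with differences of 4.41 ± 0.39 and 3.44 ± 0.67. Lars2, the mitochondrial leucyl-tRNA synthetase gene, took 4.75% to 54.8% of mRNA-seq reads and 0.0830% to 3.51% of Ribo-seq reads. Short reads on Lars2 and Gm20594 can be shared with repeated sequence, so both are given as uncertain, and the groups of Gm20594 overlapped in footprints.

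After 1 h of CPA, in libraries compared with the same control libraries, 274 genes were higher (3.41%) and 295 lower (3.67%). Atf4 had changed by 2.71 at 1 h beside 3.39 at 18 h, Ddit3 by 4.08 beside 5.76, and Chac1 by 2.72 beside 3.26. Hspa5 was at -0.07 beside 1.57, Ins2 at -0.13 beside -1.94 and Slc2a2 at -0.43 beside -3.37. Genes whose footprint and mRNA changes differed at 18 h had in part moved by 1 h. Kmt5c was at 3.68 beside 4.34, Gm20594 at 1.87 beside 1.93 and Lars2 at 1.74 beside 2.44. Cdyl2 was at 1.35 beside 2.18, Ftl1 at 0.97 beside 1.37 and Nnat at 0.48 beside -1.27. Of the ribosomal proteins 61 were lower at 1 h and 41 higher at 18 h, and of the ER chaperones 9 were lower at 1 h and 17 higher at 18 h. Since controls are shared, these pairs are values side by side and no test of one time against the other.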

How the data were processed

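MIN6 cells from 3 experiments gave 18 libraries, of which 6 are described. Per the methods and the file headers, the authors kept reads of 15 to 40 bases, mapped these with Bowtie2 on a GRCm38.p6 transcript reference at 95% identity or more, and deposited read counts, RPM and RPKM for each RefSeq transcript. Lysates held cycloheximide, footprints came from monosomes of a sucrose gradient after RNase digestion, and ribosomes that gather at one site and reads shared between transcripts can each move a gene's count.

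Of 30741 transcripts, 30232 matched a RefSeq accession with its version, 478 without it and 31 not at all, and counts were summed per gene (17207 genes). Deposited counts were tested with edgeR 4.0.16 (TMM scaling, quasi-likelihood, experiment as a block, 9 Ribo-seq libraries) over the 8033 genes with a read in each; the SE is the log2 fold change divided by the square root of F. The difference between assays was fitted over all 18 libraries. RPKM, as deposited by the authors and summed per gene, served for ranks and for 1 form of the insulin share. The deposited RPM were not used. The tests were run on simulated counts, where small changes were recovered less often than large ones, so a gene not called may still differ. R 4.3.3, DESeq2 1.42.0, limma 3.58.1 and Python 3.11.15 were used. At these totals 3 counts are 0.00178% of the smallest library.

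The experiment number is given in the labels as a batch, so it was kept as a block. Deviations from group means of same-numbered Ribo-seq libraries correlated at 0.139 on average over 9 pairs (0.0857 to 0.192). The series calls the experiments independent. In the edgeR tests the block takes out level differences between experiments. Their p-values rest on the spread left after treatment and experiment, estimated over all libraries of a fit, those after 1 h of CPA included.

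Named genes were the 10 largest increases and decreases that were called, of the same sign in all experiments and at 20 TMM CPM or more on average, 20 further genes, up to 3 members of each list with the smallest p plus 1 of opposite direction, and the 5 strongest differences between assays. The genes, the 17 lists and the tests were chosen with earlier results of these data known. Alternatives were other scalings, filters, tools, thinning to the lowest total, no block, and each experiment left out (for mRNA-seq calls this was added after seeing the data).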

Additional observations from a re-analysis of the deposited data

Results flagged for a closer look

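A test of the difference between the footprint change and the mRNA change picked out 6 named genes, with differences (log2, footprints minus mRNA) of 5.02 for Kmt5c, 4.41 for Gm20594, 4.41 for Cdyl2, 3.44 for Lars2, 2.10 for Nnat and 1.93 for Ftl1. Without the experiment block none of the 7794 genes passed this test in edgeR (328 at an unadjusted p under 0.05). In mRNA, Cdyl2 was lower and Kmt5c not called.

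Among genes kept out of the test because a library had no read, 3 had at least 10 reads in every CPA18 library. Atf3, a transcription factor of the stress response, had 92 reads over the CPA18 libraries and 3, 0 and 11 in the controls. Lcn2, a secreted iron-siderophore carrier, had 113 reads over the CPA18 libraries (18, 39 and 56) and 2, 0 and 3 in the controls. Hhipl1 had 78 (10, 24 and 44) and 0 in each control. No outlying library was looked for, since groups of 3 are too small for that test.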

How the results depend on the processing

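The 1845 called genes became 1113 with DESeq2 and 1021 with counts thinned to the lowest total (5920 genes tested, so fewer could be called), and 1108 to 1409 with 1 experiment left out; the lowest is without experiment 2. The 876 higher genes became 1948 with total scaling, 1338 when the total excluded insulin genes and Lars2, 501 with DESeq2, 500 thinned and 541 to 664 with 1 experiment left out. The 969 lower genes became 495, 688, 612, 521 and 567 to 745. For the scalings the cause is their construction, a shift of all genes; for DESeq2 the cause was not tested. No gene called both here and in an alternative changed direction. The 30 differences between assays became 0 without the replicate block (328 at an unadjusted p under 0.05), 9 to 21 with 1 experiment left out and 39 without the mRNA-seq control library of experiment 2. The 2797 mRNA-seq calls became 1397 to 2100 with 1 experiment left out, a choice made after seeing the data. Without the block the footprint calls were 1478 (691 higher, 787 lower). The fall of the insulin share in percentage points was -13.0, -26.2 as a share of RPKM and -14.0 to -12.3 with 1 experiment left out. Of 1205 values of named genes under alternatives, 1187 kept direction and side of the threshold and 18 lost the call. Most named genes were chosen by size or p-value in the main fit, so these counts say little about called genes in general. Because a CPA18 library had 0 reads, 196 genes with 10 or more reads in each control were not tested. Without the filter on low counts 14637 genes were tested, and 691 were called higher and 1060 lower.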

Other observations

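Some abundant genes outside the lists also moved, and all those named here were chosen after their values were seen. Hmox1, heme oxygenase, was at 82.3, 59.4 and 57.6 TMM CPM in control footprints and 330, 470 and 399 in CPA18 (2.59 ± 0.21, edgeR adjusted p = 2.31e-30). Sqstm1, the autophagy receptor p62, went from 640, 729 and 617 to 1983, 2734 and 2483 (1.85 ± 0.17, adjusted p = 6.13e-24). The groups of both genes were apart. The metallothionein gene Mt1, which binds zinc, rose by 0.95 ± 0.17 (adjusted p = 4.82e-07), and its neighbour Mt2 by 0.60 ± 0.17 with overlapping groups, a call lost without the block and without experiment 2. Actg1, gamma actin, went from 4097, 4387 and 3589 to 645, 1006 and 1150 (-2.12 ± 0.18, adjusted p = 2.56e-28), and Myc rose by 2.20 ± 0.42 from 4 to 12 control reads.

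Among other peptide genes of these cells, Cck was at 4377, 5342 and 6116 TMM CPM in control and 3417, 4964 and 3691 in CPA18 (-0.37 ± 0.17, adjusted p = 0.0968), with overlapping groups, while Npy went from 2519, 3491 and 3266 to 798, 1197 and 1145 (-1.57 ± 0.17, adjusted p = 2.71e-17). No test compared the peptides with each other.

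Of the 196 genes left out for a CPA18 library without reads, Ttc28 had 34, 48 and 46 control reads and 0, 0 and 4 in CPA18, and Lyve1 had 25, 32 and 64 and then 1, 0 and 2. Control libraries were deeper, and these counts are given without a test.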
